A study of Mus musculus with 2 samples.

Results

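The mRNA levels of DNA repair and damage response genes were examined in oocytes, the female germ cells, of a study on spermidine, a natural polyamine, and meiotic maturation. A set of 46 genes was chosen by function, and those whose symbol stood in the expression table were taken. Of these, 41 were found among the 38817 genes of the table. BRCA2, CHEK2, ERCC5, GADD45A and TP53BP1 were not found under these symbols and were not analysed here. The members covered base excision, mismatch and nucleotide excision repair, damage sensing and checkpoint kinases, homologous recombination, non-homologous end joining and replication protein A.

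RNA came from 100 oocytes for each group, per the labels. The library labelled SPE is read here as the spermidine-treated one, since the table names its column SPD. The other library was the control. Neither the dose nor the time of treatment is given in the labels used here, and both libraries carried the same genotype label, WT ICR. The labels named mouse oocytes, whereas the series title names porcine oocytes and the table lists genes on pig chromosomes. The values were therefore read as pig genes, and which column belongs to which labelled sample was decided by the names and numbers of the columns, with nothing else to check it. Each group had 1 matched library of pooled oocytes. The table also holds columns named Con2 and SPD2, which by their names may be a second library of each group, but they matched no labelled sample used here and entered no result. No replicate error was therefore estimated, every difference below compares 1 pair of libraries and has no test, and whether any of them, that of APEX1 included, holds in the unmatched columns was not analysed here. In bulk RNA of this kind, fewer cells of a type and less RNA per cell cannot be told apart.

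Levels are given in FPKM, fragments scaled to transcript length and to the mapped fragments of the library, which allows levels to be compared between genes. Differences are given as log2((SPE + 1) / (control + 1)); the added 1 FPKM, the pseudocount, understates differences of low genes. The depth of the libraries is unknown, as read counts are not part of the columns used. The columns summed to 251829 FPKM in the SPE library and 249340 FPKM in the control library. Oocyte markers were abundant in both: the 10 listed genes summed to 2176 FPKM in the SPE library and 2325 FPKM in the control library, with OOSP2, an oocyte-secreted protein gene, the highest of the list at 730.3 FPKM in the SPE library and 904 FPKM in the control library. The 11 granulosa and cumulus markers found (of 12 listed) summed to 2.30 FPKM in the SPE library and 14.7 FPKM in the control library. INHBB, the inhibin beta B subunit gene, made up most of the control sum, at 1.28 FPKM in the SPE library and 10.8 FPKM in the control library. Its locus here spans only 349 bases on an unplaced scaffold, so its level rests on little sequence. The 2 granulosa and cumulus markers averaging 1 FPKM or more, INHBB and HSD3B1, were both lower in the SPE library. Of the 9 below that level, 4 (STAR, INHA, FSHR and PTX3) were lower in the SPE library. Another 2 (CYP19A1 and FOXL2) were higher and 3 were at 0 in both. HSD3B1, a steroid synthesis gene, was at 0.111 FPKM in the SPE library and 1.90 FPKM in the control library, and STAR, the carrier of cholesterol into mitochondria, at 0.168 FPKM in the SPE library and 1.27 FPKM in the control library. CYP19A1, the aromatase gene, was at 0.339 FPKM in the SPE library and 0.264 FPKM in the control library, and FOXL2, a granulosa transcription factor, at 0.199 FPKM in the SPE library and listed at 0 in the control library. AMH, NR5A1 and TNFAIP6 of that list were at 0 in both. Somatic cells also express repair genes, and the part of this marker difference in the results below was not tested. Blood and immune markers summed to 0.0242 FPKM in the SPE library and 0.395 FPKM in the control library over 5 genes found, with CD68 the highest of them, and HBB, CD14 and LYZ at 0 in both.

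A growing oocyte stores mRNAs that serve the egg and the early embryo before the embryonic genome is switched on, and repair factors are among the products of this store. Base excision repair removes small damaged bases, such as those made by oxidation: a glycosylase cuts out the base, an AP endonuclease nicks the strand, and a polymerase and a ligase fill and seal the gap. Nucleotide excision repair removes bulky lesions, mismatch repair corrects errors of copying, and homologous recombination and end joining rejoin broken chromosomes. The kinases ATM and ATR signal damage to the checkpoint.

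Most of the listed repair genes averaged below 1 FPKM, and the levels of the others were close in both libraries, with APEX1 as the exception. Of the 41 genes found, 15 averaged 1 FPKM or more across the SPE and control libraries and 26 averaged less. Of all 38817 genes in the table, 4391 (11.3%) reached this level, as did 20.3% of the 14922 genes without a provisional name. Reaching it was thus more frequent among the listed genes than among either. Among the 15 genes, APEX1 was higher by 2-fold or more in the SPE library, 0 were lower by 2-fold or more and 14 stayed within that range. Of the 4391 genes, 2.85% were higher by 2-fold or more and 2.14% lower by 2-fold or more, so a count of 1 in 15 is not far from this background. The median log2 ratio of the 15 genes was -0.06, against -0.04 over all 4391 genes. Of the 15, 12 were lower in the SPE library by any amount, against 55.4% of all genes analysed. That count rested on small differences: it was 9 after centring on the median of all genes and 8 after rescaling without mitochondrial and ribosomal RNA genes.

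**Figure D1:**
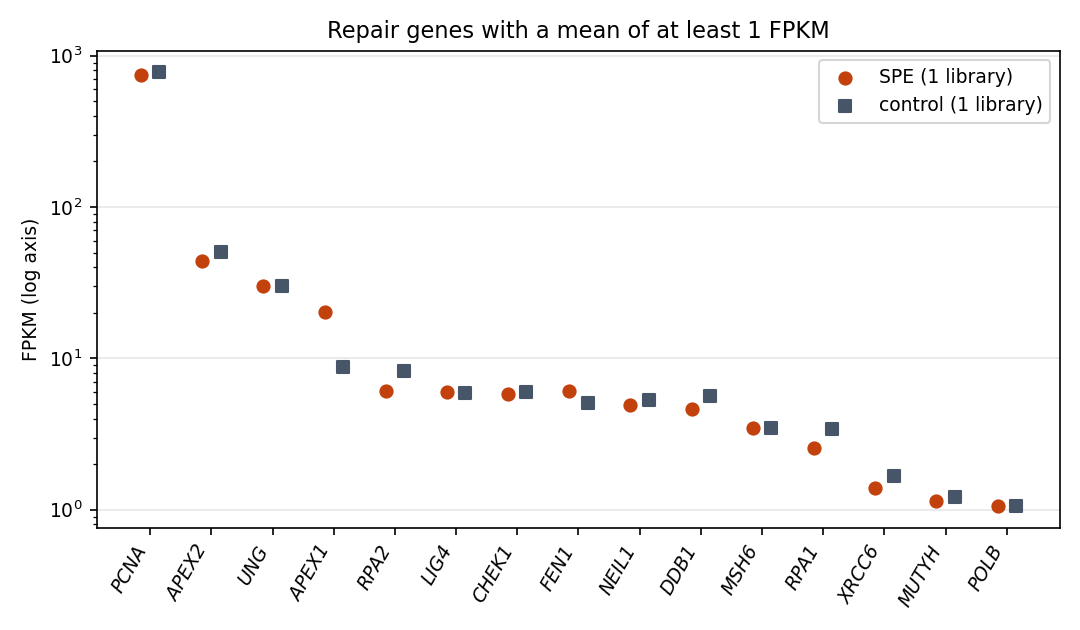
FPKM (log axis) of the 15 repair genes that averaged 1 FPKM or more, ordered by mean; circles are the SPE library and squares the control library, 1 library each. PCNA stands far above the rest at 744 FPKM in the SPE library and 774 FPKM in the control library, and APEX1 is the gene whose symbols lie farthest apart, at 20.2 FPKM in the SPE library and 8.76 FPKM in the control library.

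The order of levels was led by PCNA, the sliding clamp that holds DNA polymerases and repair enzymes on the template. It was at 744 FPKM in the SPE library and 774 FPKM in the control library (log2 ratio -0.06), over a locus on chromosome 17 (15127978 to 15132806) with no overlapping gene. Its mean ranked 25 among the 38817 genes. PCNA alone held 83.8% of the summed FPKM of the 41 genes in the SPE library and 84.4% in the control library, and it exceeded the next gene, APEX2, 16.8-fold in the SPE library and 15.5-fold in the control library. Without PCNA the other 40 genes summed to 144 FPKM in the SPE library and 143 FPKM in the control library.

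Among the listed genes, base excision repair, in which PCNA was counted, was the pathway with the most abundant transcripts. In it, 8 of 15 genes reached a mean of 1 FPKM, and all 4 members with a mean of 10 FPKM or more belonged to it. APEX1, the main AP endonuclease, was at 20.2 FPKM in the SPE library and 8.76 FPKM in the control library. The plain ratio was 2.31 and the log2 ratio with the pseudocount was 1.12, and 99 of the 4391 genes analysed had a larger ratio. Its mean lay in the range of 10 to 30 FPKM, where 12 of 641 genes (1.87%) were higher by 2-fold or more in the SPE library and where the 95th percentile of the log2 ratio was 0.57. The locus of APEX1 is short, 2153 bases on chromosome 7 (83479687 to 83481839). Among genes of the same level with a locus under 3 kb, 6 of 119 (5.04%) were higher by that much, against 6 of 522 (1.15%) with a longer one. With a pseudocount of 5 FPKM the log2 ratio of APEX1 was 0.87, under the 2-fold line.

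PNP and TMEM55B, the genes beside APEX1 on the chromosome that averaged 1 FPKM or more, were not higher in the SPE library. The other neighbours were at or near 0. TMEM55B, which ends 86 bases before the start of the APEX1 locus, was at 1.94 FPKM in the SPE library and 2.28 FPKM in the control library (log2 ratio -0.16). OSGEP, a gene of tRNA modification that starts 437 bases beyond it, was at 0.122 FPKM in the SPE library and 0.286 FPKM in the control library. PNP, the purine nucleoside phosphorylase gene 4859 bases away, was at 36.9 FPKM in the SPE library and 39.6 FPKM in the control library (-0.10). The APEX1 locus itself overlapped no other gene. PARP2, another base excision repair gene, lies 81576 bases from APEX1 and was at 0.139 FPKM in the SPE library and 0.0452 FPKM in the control library, values too low to read as a difference. Of the 8 other genes within 100 kb, PNP and TMEM55B were the only ones to average 1 FPKM or more. RNASE10, LOC106507719, KLHL33 and TEP1 were listed at 0 in both libraries.

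APEX2, the second AP endonuclease, which binds PCNA, was the more abundant of the pair. It was at 44.2 FPKM in the SPE library and 50.1 FPKM in the control library (log2 ratio -0.18; chromosome X, 53798823 to 53806723). APEX2 therefore exceeded APEX1 2.19-fold in the SPE library and 5.72-fold in the control library. UNG, the glycosylase that removes uracil from DNA, was at 30.01 FPKM in the SPE library and 30.02 FPKM in the control library, with a log2 ratio of -0.0006 (chromosome 14, 44311840 to 44323500). It was the closest match between the libraries among the 15 genes.

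The other glycosylases were lower than UNG. NEIL1, which removes oxidised pyrimidines, was at 4.92 FPKM in the SPE library and 5.32 FPKM in the control library, over a locus shared with COMMD4 and provisional genes, so its reads may not all be its own. MUTYH, which removes adenine paired with oxidised guanine, was at 1.14 FPKM in the SPE library and 1.22 FPKM in the control library. OGG1, which removes oxidised guanine itself, lay just under the filter at 0.772 FPKM in the SPE library and 1.02 FPKM in the control library, over a locus shared with CAMK1. NTHL1, a glycosylase of oxidised pyrimidines, was also under it, at 0.570 FPKM in the SPE library and 1.21 FPKM in the control library. Of these glycosylases, none was higher in the SPE library, and 55.4% of all genes analysed were lower there by any amount. UNG was level between the libraries, and its log2 ratio was 0.04 after centring on the median of all genes.

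Downstream of the nick, FEN1, the flap endonuclease, was at 6.04 FPKM in the SPE library and 5.08 FPKM in the control library (log2 ratio 0.21; chromosome 2, 9241379 to 9246239). Apart from APEX1 this was the largest positive ratio of the 15 genes, and 988 of the 4391 genes had a larger one. POLB, the gap-filling polymerase, was at 1.06 FPKM in the SPE library and 1.07 FPKM in the control library. The ligases and scaffold were near the floor. LIG3 was at 0.353 FPKM in the SPE library and 0.639 FPKM in the control library, and LIG1 at 0.0541 FPKM in the SPE library and 0.0611 FPKM in the control library. XRCC1, the scaffold protein of LIG3, was at 0.0514 FPKM in the SPE library and listed at 0 in the control library. PARP1, the sensor of strand breaks, was at 0.360 FPKM in the SPE library and 0.178 FPKM in the control library.

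**Figure D2:**
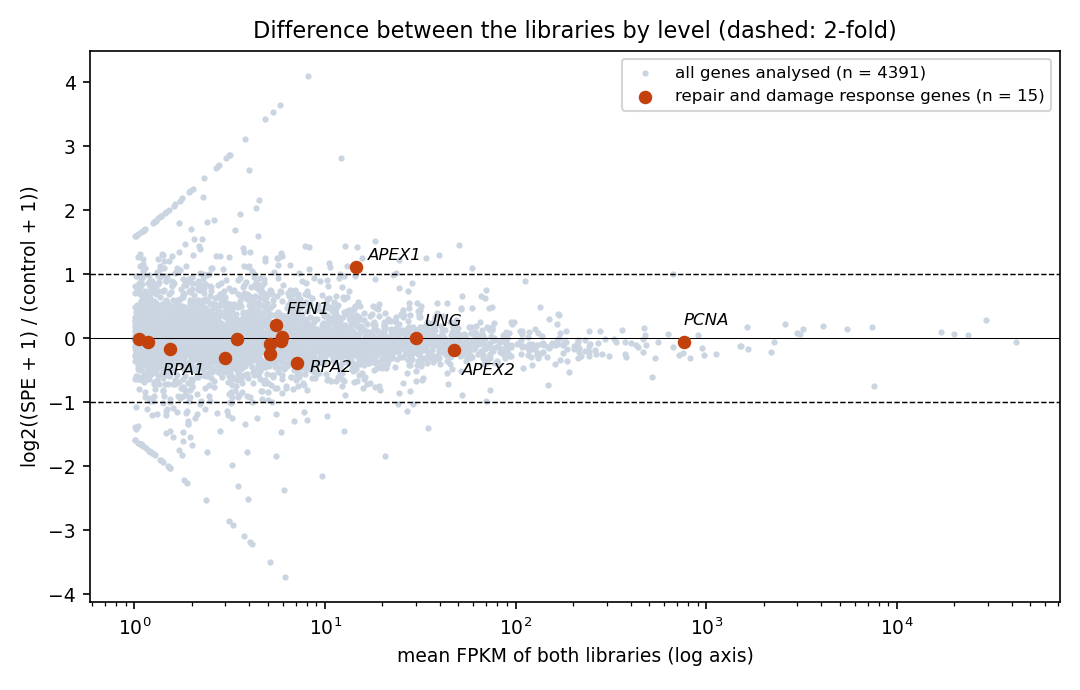
Log2((SPE + 1) / (control + 1)) against mean FPKM (log axis) for the 4391 genes analysed (grey) and the 15 repair genes (orange), with dashed lines at 2-fold. APEX1 at 1.12 lies above the upper line, and the other 14 repair genes lie between -0.39 and 0.21, within the spread of genes at their level.

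Replication protein A, the trimer that coats unwound DNA in replication, recombination and excision repair, was the group with the lowest ratios. RPA2, its middle subunit, was at 6.06 FPKM in the SPE library and 8.24 FPKM in the control library (log2 ratio -0.39; chromosome 6, 78572938 to 78586231). RPA1, its large subunit, was at 2.54 FPKM in the SPE library and 3.40 FPKM in the control library (-0.31; chromosome 12, 49862650 to 49901712). Neither reached 1.5-fold. Of all genes analysed, 5.67% were lower by 1.5-fold or more and 7.54% higher by 1.5-fold or more, and at this size APEX1 was again the 1 listed gene. Both ratios also lay above the 5th percentile of genes at their level, which was -0.63 between 3 and 10 FPKM and -0.73 between 1 and 3 FPKM. The ratio of RPA2 to RPA1 was 2.38 in the SPE library and 2.42 in the control library. RPA3, the small subunit, was listed at 0 in both libraries over a locus of 2766 bases, and such a zero may be a failed estimate in a table without counts.

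In mismatch repair MSH6, which recognises mismatched bases, was at 3.46 FPKM in the SPE library and 3.47 FPKM in the control library. The log2 ratio of MSH6 was -0.005, near 0. MSH3, which recognises small loops, was at 0.356 FPKM in the SPE library and 0.352 FPKM in the control library, over a locus that 9 other genes overlapped. MSH6 exceeded MSH3 9.70-fold in the SPE library and 9.86-fold in the control library. PMS2, of the complex that acts after recognition, was at 0.0204 FPKM in the SPE library and 0.0398 FPKM in the control library.

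Of the 7 nucleotide excision repair genes found, DDB1 alone reached 1 FPKM. DDB1, the adaptor of the CUL4 ubiquitin ligases that also serves outside repair, was at 4.61 FPKM in the SPE library and 5.62 FPKM in the control library (log2 ratio -0.24; chromosome 2, 9718733 to 9748620). DDB2, its partner in recognising ultraviolet lesions, was at 0.0286 FPKM in the SPE library and 0.0835 FPKM in the control library. XPA, which verifies the lesion, was at 0.851 FPKM in the SPE library and 0.657 FPKM in the control library. XPC, which recognises distorted DNA, was at 0.481 FPKM in the SPE library and 0.359 FPKM in the control library. The helicase gene ERCC3 was at 0.213 FPKM in the SPE library and 0.181 FPKM in the control library, and ERCC1, a subunit of the nuclease that cuts beside the lesion, at 0.212 FPKM in the SPE library and 0.315 FPKM in the control library. The helicase gene ERCC2, on an unplaced scaffold, was listed at 0 in both.

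Among damage sensing and checkpoint genes CHEK1, the kinase that acts below ATR, was the abundant one. It was at 5.78 FPKM in the SPE library and 5.96 FPKM in the control library (log2 ratio -0.04). ATM, the kinase that responds to broken ends, was at 0.412 FPKM in the SPE library and 0.528 FPKM in the control library. CHEK1 exceeded ATM 14.01-fold in the SPE library and 11.3-fold in the control library. ATR, the kinase that responds to exposed single strands, was at 0.00118 FPKM in the SPE library and listed at 0 in the control library. MDC1, the scaffold that binds marked chromatin at breaks, was at 0.498 FPKM in the SPE library and 0.384 FPKM in the control library.

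The 5 homologous recombination genes found all lay below a mean of 1 FPKM. BRCA1, which promotes resection and loading of the recombinase, was the highest at 0.811 FPKM in the SPE library and 0.599 FPKM in the control library, over a locus shared with NBR1. Of the complex that senses and trims broken ends, MRE11A was at 0.427 FPKM in the SPE library and 0.211 FPKM in the control library, and RAD50 was at 0.106 FPKM in the SPE library and 0.0999 FPKM in the control library. NBN, the third subunit of this complex, was listed at 0 in both. RAD52, which anneals single strands, was at 0.0632 FPKM in the SPE library and 0.0365 FPKM in the control library. The 5 genes summed to 1.41 FPKM in the SPE library and 0.947 FPKM in the control library.

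**Figure D3:**
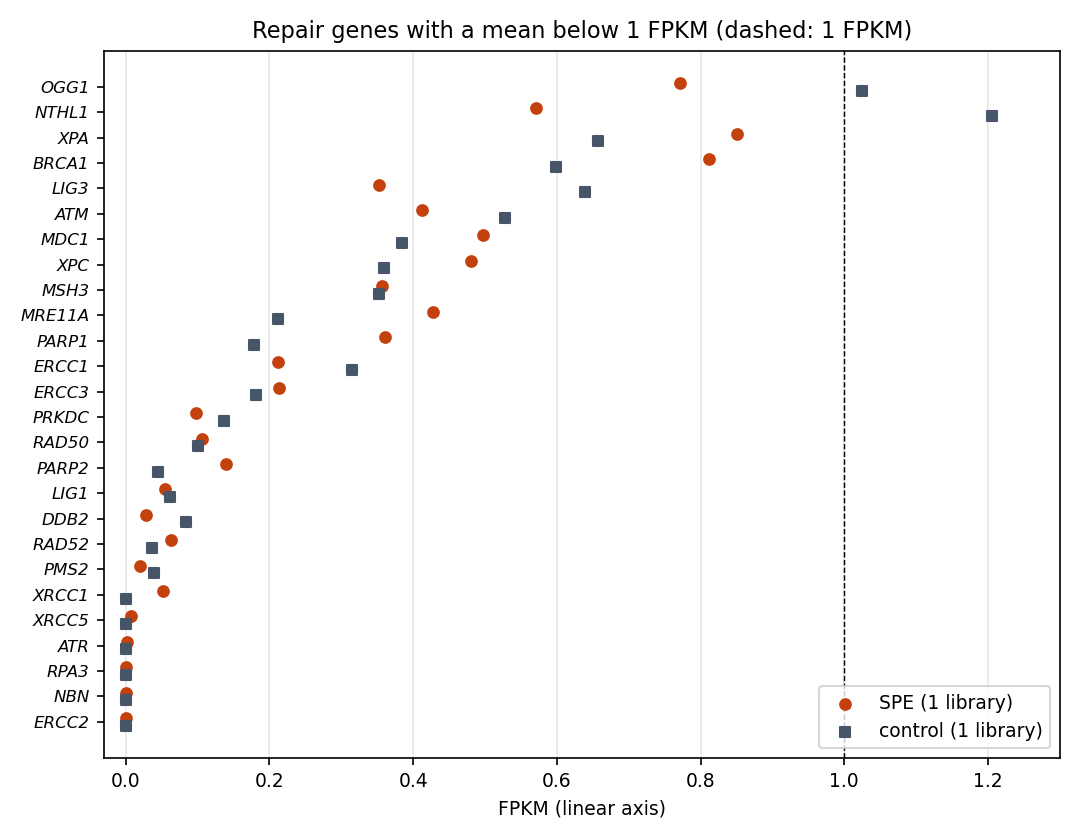
FPKM (linear axis) of the 26 repair genes with a mean below 1 FPKM; circles are the SPE library and squares the control library, 1 library each, and the dashed line marks 1 FPKM. The genes differ in either direction, NTHL1 and OGG1 pass 1 FPKM in the control library alone, and ERCC2, NBN and RPA3 are at 0 in both.

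In non-homologous end joining LIG4, the ligase of the pathway, was at 6.0 FPKM in the SPE library and 5.89 FPKM in the control library (log2 ratio 0.02). XRCC6, the smaller Ku subunit that binds broken ends, was at 1.38 FPKM in the SPE library and 1.68 FPKM in the control library (-0.17). Its partner XRCC5 was at 0.00770 FPKM in the SPE library and listed at 0 in the control library, although the proteins work as a dimer. PRKDC, the catalytic subunit of the DNA-dependent protein kinase, was at 0.0984 FPKM in the SPE library and 0.136 FPKM in the control library. LIG4 exceeded XRCC4, its cofactor outside the 46 genes, 8.89-fold in the SPE library and 7.83-fold in the control library.

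The 26 genes below 1 FPKM gave no common direction. They summed to 6.89 FPKM in the SPE library and 7.14 FPKM in the control library, 14 were higher in the SPE library, 9 were lower and 3 were listed at 0 in both. Of the 17607 genes above 0 in either library, at any level, 45.65% were lower in the SPE library. The share among all genes below 1 FPKM was not computed. Of the 26, ATR, XRCC1 and XRCC5 were above 0 in the SPE library alone, all at values near 0. None of the 26 was above 0 in the control library alone. Of all 38817 genes, 16031 were above 0 in the SPE library and 14556 in the control library. More genes were thus above 0 in the SPE library over all genes too. Of the 20 listed genes in this range above 0 in both libraries, 3 (PARP1, PARP2 and MRE11A) were at least 2-fold higher by the plain ratio. Another 2 (NTHL1 and DDB2) were at least 2-fold lower. Of all 8662 genes so low and above 0 in both, 19.0% were at least 2-fold higher and 16.9% at least 2-fold lower by the plain ratio, so plain ratios at this level vary widely.

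A further 150 genes of repair, chosen by function, were set beside the members. Of these, 130 were found and 31 averaged 1 FPKM or more. In the SPE library 0 of the 31 were higher by 2-fold or more and 0 were lower by 2-fold or more. Of all 4391 genes analysed, 2.85% were higher and 2.14% lower by that much, so 0 of 31 is not far from this background. The median log2 ratio of the 31 genes was -0.04. By any amount, 17 of them were lower and 14 higher, against 55.4% lower over all genes analysed. The ratios ran from -0.55 for ALKBH2, which reverses alkylated bases, to 0.49 for UBE2T, the ubiquitin-conjugating enzyme of crosslink repair, both named after their values were seen. ALKBH2 was at 6.15 FPKM in the SPE library and 9.50 FPKM in the control library. UBE2T was at 12.2 FPKM in the SPE library and 8.42 FPKM in the control library.

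The highest genes of the further groups were close in both libraries. CETN2, a centrin that also binds XPC, was at 109 FPKM in the SPE library and 119 FPKM in the control library. FANCF, of the Fanconi anaemia core complex, was at 76.3 FPKM in the SPE library and 88.5 FPKM in the control library. PALB2, which links BRCA1 and BRCA2, was at 46.1 FPKM in the SPE library and 48.2 FPKM in the control library, and exceeded BRCA1 56.9-fold in the SPE library and 80.3-fold in the control library. RAD1, of the checkpoint clamp, was at 26.1 FPKM in the SPE library and 27.7 FPKM in the control library over a locus shared with 4 genes.

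The highest genes of the remaining groups were also within 2-fold, although other genes of these groups, such as ALKBH2, differed more. RRM2B, a ribonucleotide reductase subunit, was at 23.6 FPKM in the SPE library and 25.7 FPKM in the control library. TDP2, which frees DNA ends of bound topoisomerase, was at 16.4 FPKM in the SPE library and 14.3 FPKM in the control library. UBE2A, the enzyme that works with RAD18 on PCNA, was at 8.96 FPKM in the SPE library and 7.70 FPKM in the control library. RIF1, of end joining, was the highest of a group in which 0 of 6 genes found reached 1 FPKM, at 0.758 FPKM in the SPE library and 0.777 FPKM in the control library.

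**Figure D4:**
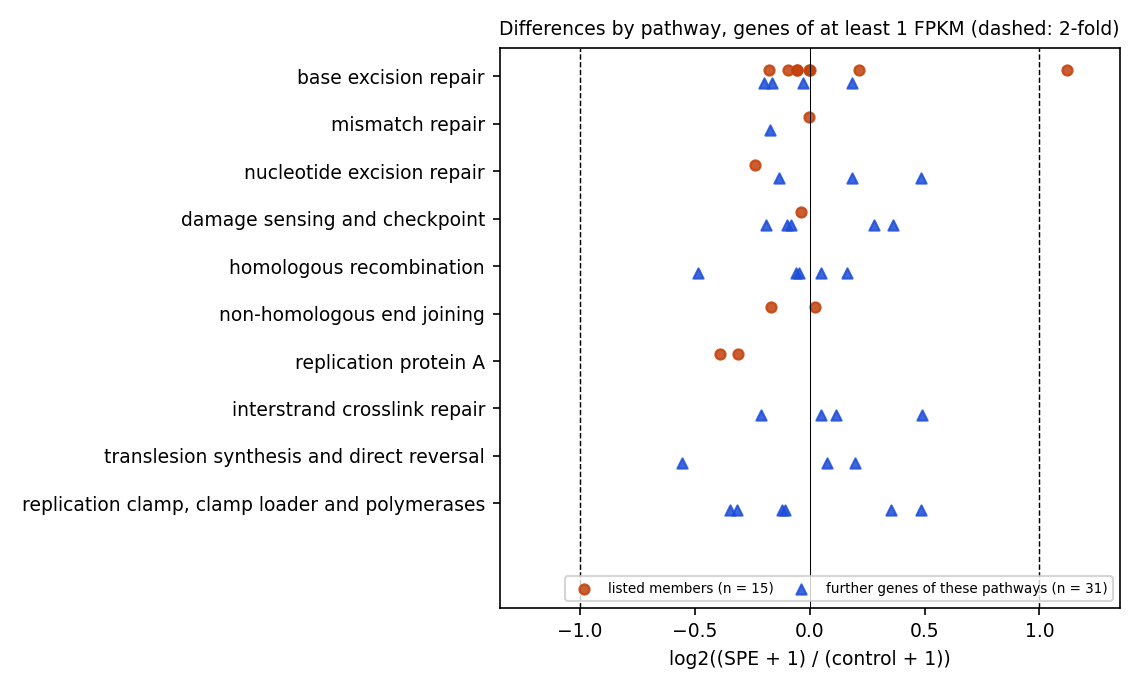
Log2((SPE + 1) / (control + 1)) of the 15 listed repair genes (circles) and 31 further repair genes (triangles) that averaged 1 FPKM or more, by pathway; 1 library per group, dashed lines at 2-fold. APEX1, in base excision repair, is the 1 point beyond 2-fold, and the further genes lie between -0.55 and 0.49.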

How the data were processed

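Pooled oocyte RNA was sequenced, with libraries from a NEB kit on an Illumina HiSeq, per the labels' protocols. The authors deposited FPKM values per gene. Per the submitters' processing notes, Bowtie2 2.2.5, RSEM and the build mm9 were used, whereas the table lists pig chromosomes; its annotation and build, and whether strand was used, remain not given in the sources used here. FPKM is relative, so a gene group that takes more of a library lowers the others. Column Con1 was matched to the control and SPD1 to the SPE sample; 2 further value columns, Con2 and SPD2, by their names possibly second libraries of the same groups, matched no sample and were not used. Symbols were matched ignoring case, with older symbols also tried for the lists other than the members. Start positions were raised by 1. Genes averaging 1 FPKM or more were analysed, with a pseudocount of 1 FPKM and a 2-fold rule. With 1 matched library per group no test was run, and the calculation was checked on simulated data. All members are named; of the further genes, those beyond 2-fold and the highest per pathway (1 is not reported here); of markers, the highest per list, with other granulosa genes and genes at 0 added after their values were seen. The members and lists were chosen with earlier results of these data known. Alternatives covered pseudocount, filter, scaling, fold rule, zeros and shared loci. No pig sequence was used here. Python 3.11.15, pandas 2.3.3, numpy 2.4.6 and matplotlib 3.10.9 were used.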

Additional observations from a re-analysis of the deposited data

How the results depend on the processing

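APEX1 remained the 1 listed gene at least 2-fold higher under 9 of 11 alternatives (pseudocount of 0.1 FPKM, both filters, the 3 scalings, the 1.5-fold rule, genes above 0 in both libraries and unshared loci). The count was 0 with a pseudocount of 5 FPKM and 0 with the 4-fold rule, both by construction stricter. No listed or further repair gene was lower by the rule in any of them. Over all genes, 125 were higher and 94 lower as reported, and these counts ran from 17 to 331 and from 7 to 249 over the same settings. The log2 ratio of APEX1 ran from 0.87 to 1.20. The median of the listed genes ran from -0.07 to -0.001, and CHEK1, MSH6, POLB and UNG, all near 0, changed sign under at least 1 scaling. These settings reuse the same libraries. No paired analysis was possible because only 1 library of each group was matched to a labelled sample. Without counts, the precision of each value cannot be given.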
